A study of Mus musculus with 12 samples.

Results

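The 43 genes described here act in mitosis, from the cyclin-dependent kinase that starts it to the proteins that cut daughter cells apart. They were taken from a list of 44 mitosis and spindle genes, and a gene was kept where at least 1 probe set of the array was paired with its symbol alone. Ccnb1 had no such probe set. The other 43 of the 18193 genes named in this way on the array had 100 probe sets, of which 90 passed the signal filter, and all 43 genes were represented by at least 1 that passed.

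Transcripts were measured on 12 Affymetrix mouse arrays from 4 lines of mouse epiblast stem cells (EpiSCs), pluripotent cells that resemble the epiblast after implantation, with 3 biological replicates of each line. Both haploid lines, haploid EpiSC-1 and haploid EpiSC-2, were labelled as strain 129Sv, and both diploid lines, diploid EpiSC-1 and diploid EpiSC-2, as B6D2F1. Ploidy and strain therefore divided the arrays in the same way and cannot be told apart. The labels give every line the same culture, N2B27 with Activin A and bFGF added, and no treatment differed between groups. The labels used here give neither the share of cells in a haploid culture that still carried 1 chromosome set at harvest nor any sorting by DNA content. Values are MAS5 signals on a linear scale, and differences are on the log2 scale, where a difference of 1 is a doubling. Arrays of a line correlated at 0.989 to 0.992 over 11105 tested genes, and arrays of different lines at 0.856 to 0.954. Of 12 epiblast markers, Otx2 and Fgf5 were at mean signals of 73.8 and 83.3 in haploid EpiSC-1 against 2131 to 3961 and 2326 to 3617 in the other lines, while Pou5f1 was lowest in haploid EpiSC-1 at 4264.

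Mitosis begins when cyclin A and cyclin B activate the kinase Cdk1, which Wee1 restrains and Cdc25 phosphatases release. Kinetochores then tie chromosomes to spindle microtubules, and the spindle checkpoint holds back the anaphase-promoting complex until every chromosome is attached. Once Cdc20 activates that complex, securin and cyclin B are destroyed, separase cuts cohesin, and the central spindle directs cytokinesis. Mammalian haploid cells are known to turn diploid in culture, and failures of mitosis or cytokinesis are the routes usually discussed for it. Many of these genes are silenced in G1 and switched on late in the cycle through promoter elements named CHR, bound by the DREAM and MuvB complexes, and CCAAT boxes, bound by NF-Y. In bulk RNA, fewer cycling cells and less RNA per cycling cell cannot be told apart.

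Promoter windows from RefSeq (GRCm38.p6, 250 bases before to 50 after an annotated start) matched 35 of the 43 genes with 39 windows. A few genes had more than 1 start, so some windows overlap. Aurkb, Ccna2, Cdc25c, Incenp, Kif20a, Spc24, Tpx2 and Wee1 had no entry. The CHR core TTTGAA, on either strand, was found in 31 of the 39 windows (79.5%, exact binomial 95% interval 63.5 to 90.7%), against 5878 of all 32851 windows (17.9%). The interval treats overlapping windows as independent. Counted by gene, 27 of 35 held the core. CCAAT, on either strand, was in 30 of the 39 (76.9%) against 37.4% of all windows. Both were in 26 (66.7%) against 6.95%. In 1 of the 39 windows the motifs overlapped. Of 37 CHR matches, 30 began within 50 bases of the start.

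The sequences that follow are the 120 bases before the start of 7 members, each read 5′ to 3′ on the gene's strand, with TTTGAA and CCAAT and their reverse complements in capitals. They show the arrangement of the elements in genes lower in haploid cells (Cdc20, Top2a, Hmmr, Nuf2) and in genes that did not pass the test between the ploidies (Cdk1, Espl1, Kif11). Their positions are chr4:118437344-118437463 (minus strand) for Cdc20, chr11:99024190-99024309 (minus) for Top2a, chr11:40733438-40733557 (minus) for Hmmr, chr1:169531465-169531584 (minus) for Nuf2, chr10:69352913-69353032 (minus) for Cdk1, chr15:102296173-102296292 (plus) for Espl1 and chr19:37376262-37376381 (plus) for Kif11.
Cdc20: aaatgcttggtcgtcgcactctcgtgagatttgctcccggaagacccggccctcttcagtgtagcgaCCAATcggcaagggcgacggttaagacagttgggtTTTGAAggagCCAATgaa
Top2a: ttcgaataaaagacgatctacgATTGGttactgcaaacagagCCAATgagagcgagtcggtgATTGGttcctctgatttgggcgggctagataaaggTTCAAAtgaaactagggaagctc
Hmmr: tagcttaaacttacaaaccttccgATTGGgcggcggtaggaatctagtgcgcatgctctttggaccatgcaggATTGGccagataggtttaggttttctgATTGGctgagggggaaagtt
Nuf2: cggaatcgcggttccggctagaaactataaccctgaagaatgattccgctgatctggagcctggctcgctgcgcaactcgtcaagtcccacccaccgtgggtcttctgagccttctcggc
Cdk1: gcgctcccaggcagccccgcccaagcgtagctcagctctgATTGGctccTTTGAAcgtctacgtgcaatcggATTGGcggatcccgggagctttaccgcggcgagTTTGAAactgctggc
Espl1: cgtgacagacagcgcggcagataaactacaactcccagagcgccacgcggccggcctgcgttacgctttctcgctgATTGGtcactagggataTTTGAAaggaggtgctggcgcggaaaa
Kif11: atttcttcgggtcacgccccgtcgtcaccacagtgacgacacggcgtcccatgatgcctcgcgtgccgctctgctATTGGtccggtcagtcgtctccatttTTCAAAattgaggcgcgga

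In Cdc20 a CHR core began 18 bases before the start, with CCAAT boxes 53 and 8 bases before it. In Top2a a CHR core on the opposite strand began 23 bases before the start, with 3 CCAAT boxes in the stretch shown. Hmmr had 3 CCAAT boxes in the stretch, and its CHR core began at base 9 after the start. Nuf2 held neither motif in these letters. Of the 7 genes with a window that were called lower in haploid cells, 4 held a CHR core and 5 a CCAAT box, and of the 28 that were not called, 23 and 22 did. A match is a string of letters, and binding was not measured.

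**Figure D1:**
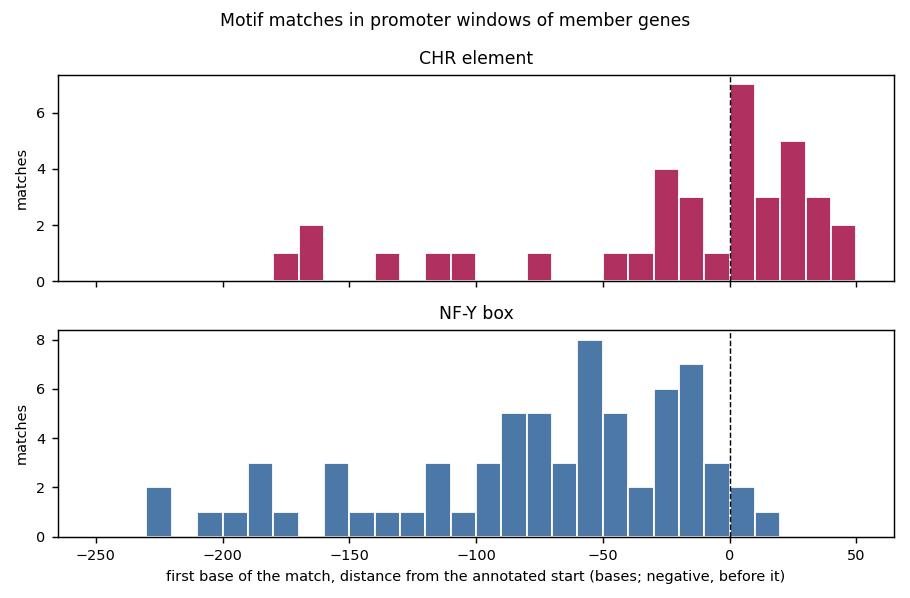
Positions of motif matches in the 39 promoter windows of member genes; the horizontal axis is the distance in bases of the first base of a match from the annotated start, and the vertical axis the number of matches in bins of 10 bases. Of the 37 CHR matches in the upper panel, 30 lie within 50 bases of the start, while NF-Y boxes in the lower panel are spread over the bases before it.

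The first comparison set the haploid lines against the diploid lines. Of the 43 genes, 9 were lower in haploid cells and 0 were higher (limma with the lines as a random block, Benjamini-Hochberg adjusted p under 0.05 over all genes). Over all 11105 tested genes 17.2% were called, 9.69% higher and 7.54% lower, so the members' total of 20.9% lay near the background, with every call on the lower side. The 9 were the spindle protein gene Hmmr, the kinetochore genes Nuf2, Spc24, Cenpf and Cenpe, the passenger complex genes Birc5 and Aurkb, the anaphase activator Cdc20 and the topoisomerase gene Top2a. Cdk1, the A and B2 cyclins, Plk1, Aurka and every spindle checkpoint member were not called. Hmmr and Nuf2 were the 2 called members that differed at least 2-fold, against 8.72% of all genes. At an unadjusted p under 0.05, 29.6% of all genes passed. On simulated data with 200 of 11105 genes changed, 336 of the 488 calls of this fit were unchanged genes. That share depends on how many genes are set to change, so it is no estimate for these data. Unchanged genes can pass this fit, so single calls between the ploidies are uncertain. With the means of the 4 lines as units, 2 against 2, only Hmmr kept its call among the members (adjusted p = 0.0424), and the other 8 had adjusted p values of 0.0645 to 0.291.

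The median difference of the 43 genes was -0.11 against 0.00 for all genes. With arrays centred on their medians, which moved the median of all genes to -0.12, it was -0.23, with 10 members lower and 0 higher; over all genes the calls then turned from 1076 higher and 837 lower to 812 and 1086. With quantile normalization the median of the members equalled that of all genes at -0.04, with 8 lower and 1 higher, the last being the contractile ring gene Anln. The shift of the whole group thus depended on the scaling, while the 8 members other than Top2a kept their calls under both.

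**Figure D2:**
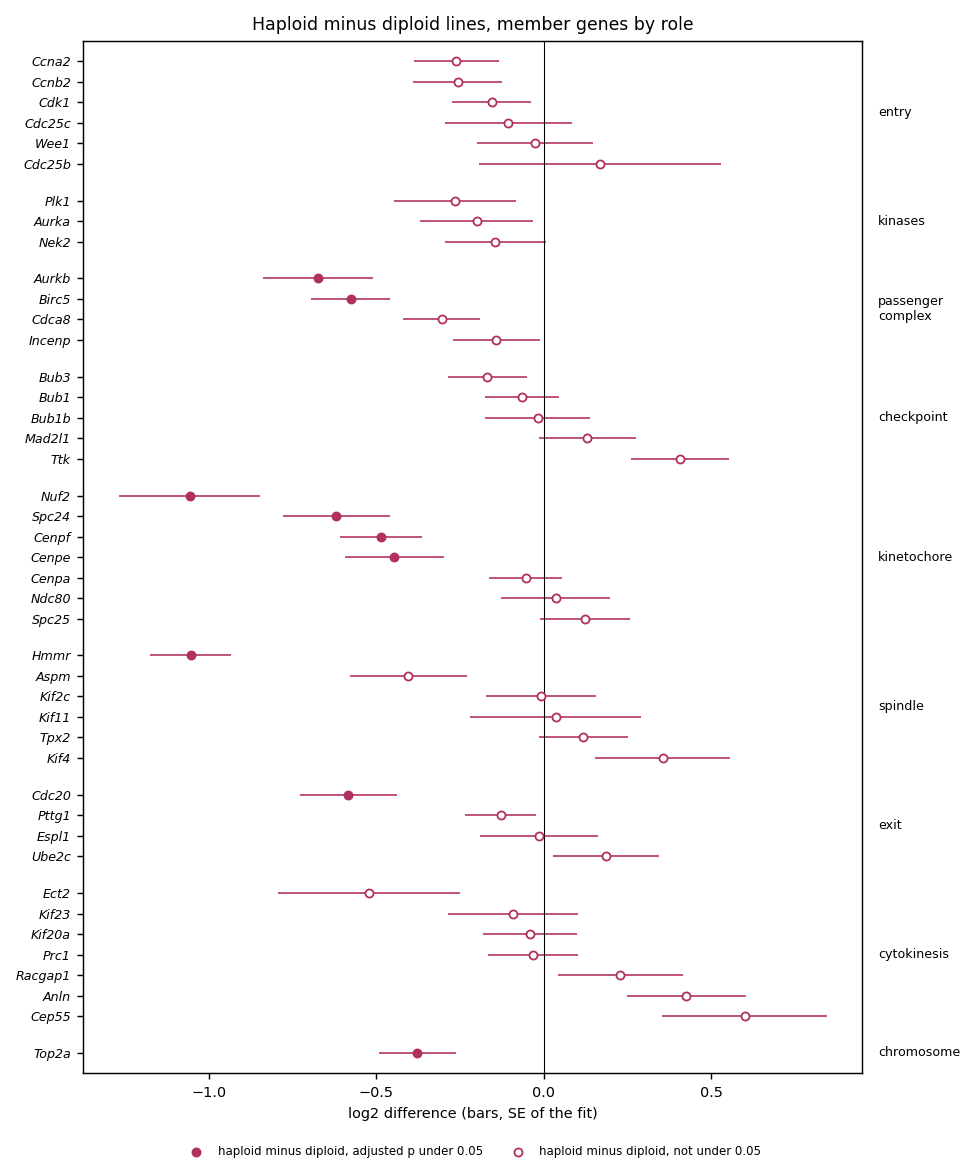
Log2 difference of each of the 43 genes between the haploid and diploid lines, with bars of 1 SE of the fit over 12 arrays, grouped by role; filled points passed an adjusted p of 0.05. The 9 filled points all lie below 0, from -1.06 for Nuf2 to -0.38 for Top2a, and no filled point lies above 0.

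Of the 6 spindle motors and organisers, 1 was called. Hmmr encodes a microtubule-binding protein that helps place the spindle and hold its poles. Its signals were 5010.0, 4884 and 5047 in diploid EpiSC-1 and 5375, 5114 and 5419 in diploid EpiSC-2, against 2611, 2632 and 2576 in haploid EpiSC-1 and 2467, 2336 and 2254 in haploid EpiSC-2. On this brightest probe set every haploid array lay below every diploid array, by a wide margin. The difference was -1.05 ± 0.12 (log2 ± SE, from 6 arrays a ploidy), an adjusted p = 1.99e-05 by limma, and the call held in all 26 alternatives. Its 4 other probe sets lay between -0.60 and -0.78, of which 1 passed when adjusted over all probe sets (adjusted p = 0.0394). In that probe set diploid EpiSC-2 (1003 to 1120) overlapped haploid EpiSC-1 (928 to 1042). In another, diploid EpiSC-2 (384 to 419) lay below haploid EpiSC-1 (422 to 485). In the rest every haploid array was below every diploid array.

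The motor genes of this group did not differ in this way. Kif11 encodes the kinesin that pushes spindle poles apart, and its difference was 0.04 ± 0.25 (adjusted p = 0.95). Kif2c, a microtubule depolymerase at centromeres, was at -0.01 and Tpx2, which activates Aurora A on the spindle, at 0.12. Kif4, a chromosome-bound kinesin encoded on the X chromosome, was at 0.36 ± 0.20 (adjusted p = 0.262), although its haploid arrays (886 to 1257) all lay above its diploid arrays (701 to 866). Aspm, a spindle pole gene, was at -0.40 ± 0.17 with overlapping arrays (adjusted p = 0.128).

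Of the 7 centromere and kinetochore genes, 4 were lower in haploid cells. Nuf2 and Spc24 belong to the NDC80 complex, which grips microtubules at the outer kinetochore. Nuf2 was at 1711, 1719 and 1695 in diploid EpiSC-1 and 1472, 1575 and 1567 in diploid EpiSC-2, and at 816, 904 and 742 in haploid EpiSC-1 and 795, 788 and 652 in haploid EpiSC-2. The haploid arrays were all near 1 level, below the diploid arrays, and the difference was -1.06 ± 0.21 (adjusted p = 0.00265, and 0.0645 with line means). Spc24 was at 2285, 2063 and 2143 in diploid EpiSC-1, 2448, 2192 and 2206 in diploid EpiSC-2, 1254, 1252 and 1328 in haploid EpiSC-1 and 1657, 1615 and 1632 in haploid EpiSC-2. Its difference was -0.62 ± 0.16 (adjusted p = 0.0134), and haploid EpiSC-1 was the lowest line. Without haploid EpiSC-1 its adjusted p was 0.0759. The complex did not move as a unit, since Ndc80 was at 0.04 ± 0.16 (adjusted p = 0.919) and Spc25 at 0.12 ± 0.13 (adjusted p = 0.604).

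Cenpf encodes a large coiled-coil protein of the outer kinetochore. Its signals were 4876, 4718 and 5177 in diploid EpiSC-1, 4779, 4817 and 5015 in diploid EpiSC-2, 3599, 3665 and 3842 in haploid EpiSC-1 and 3305, 3363 and 3225 in haploid EpiSC-2. The ploidies did not overlap, and the difference was -0.49 ± 0.12 (adjusted p = 0.0115). Averaged over its probe sets, Cenpf was at -0.20 (adjusted p = 0.677), and its dimmer probe sets were at 0.25 and -0.36. Cenpe, the kinetochore motor that carries chromosomes to the spindle equator, was at 2337, 2590.2 and 2460 in diploid EpiSC-1, 1965, 1967 and 1959 in diploid EpiSC-2, 1633, 1640.3 and 1622 in haploid EpiSC-1 and 1619, 1665 and 1506 in haploid EpiSC-2. The haploid lines lay at 1 level and the diploid lines at different levels above it. Its difference was -0.45 ± 0.15 (adjusted p = 0.0465). The call held in 8 of 26 alternatives and was lost on leaving out any single array but diploid EpiSC-1 replicate 1 or haploid EpiSC-2 replicate 2 (adjusted p up to 0.0641). A second Cenpe probe set did not follow, with diploid EpiSC-2 (926 to 1163) below both haploid lines (1197 to 1568). The ploidy difference of that probe set was -0.16 (adjusted p = 0.795 over all probe sets). The average of the Cenpe probe sets was at -0.31 (adjusted p = 0.377). Cenpa, the centromeric histone, was at -0.05 ± 0.11 (adjusted p = 0.799).

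Of the 4 genes of the chromosomal passenger complex, which corrects faulty attachments and later guides cytokinesis, 2 were lower. Birc5, or survivin, was at 7777, 7684 and 7969 in diploid EpiSC-1 and 8726, 8800 and 9177 in diploid EpiSC-2. In haploid EpiSC-1 it was at 5152, 5522 and 5493, and in haploid EpiSC-2 at 5870.1, 5974 and 5570. All haploid arrays were lower, and the difference was -0.58 ± 0.12 (adjusted p = 0.00300). Aurkb, the kinase of the complex, was at 3112, 3050.4 and 3007 in diploid EpiSC-1, 2377, 2264 and 2396 in diploid EpiSC-2, 1987, 1873 and 2017 in haploid EpiSC-1 and 1451, 1484 and 1382 in haploid EpiSC-2. Each line had a level of its own, with haploid EpiSC-2 the lowest, and the difference was -0.67 ± 0.16 (adjusted p = 0.00943). Aurkb did not pass when diploid EpiSC-1 (adjusted p = 0.0778) or haploid EpiSC-2 (adjusted p = 0.0528) was left out. The probe set carries the suffix _x_at, which Affymetrix gives where some probes can match other transcripts. Without such probe sets Aurkb was not called (adjusted p = 0.125), and the other Aurkb probe set was at -0.42 (adjusted p = 0.114 over all probe sets).

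Cdca8, or borealin, was at 8024, 8330.3 and 8412 in diploid EpiSC-1, 10014, 9501 and 9736 in diploid EpiSC-2, 6812, 6676 and 6959 in haploid EpiSC-1 and 7689.6, 7566 and 7955 in haploid EpiSC-2. Its arrays did not overlap either, but the difference of -0.31 ± 0.11 was not called (adjusted p = 0.0779, and 0.0212 without diploid EpiSC-1 or 0.0298 without haploid EpiSC-2). Each of those omissions leaves 1 line in a ploidy. Incenp, the scaffold of the complex, was at -0.14 ± 0.13 (adjusted p = 0.524).

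Of the 4 genes of anaphase and mitotic exit, 1 was lower. Cdc20, which activates the anaphase-promoting complex, was at 15020.0, 14365 and 15869 in diploid EpiSC-1 and 19141, 17553 and 19070.4 in diploid EpiSC-2. It was at 10319, 9654 and 10344 in haploid EpiSC-1 and 12798, 12453 and 11831 in haploid EpiSC-2. The lowest diploid array was above the highest haploid array, and the difference was -0.58 ± 0.15 (adjusted p = 0.0112, and 0.0746 without haploid EpiSC-1). Its 2 other probe sets, at -0.52 and -0.88, were both called when adjusted over all probe sets (adjusted p = 0.00969 and 0.00916). Pttg1, or securin, was at -0.13 ± 0.11 (adjusted p = 0.466), the separase gene Espl1 at -0.01 ± 0.18 and Ube2c, the ubiquitin-conjugating enzyme of the complex, at 0.18 ± 0.16.

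Top2a, which untangles sister chromatids, was at 14929, 15549 and 16139 in diploid EpiSC-1, 13886, 13677 and 14782 in diploid EpiSC-2, 11066, 11609 and 12004 in haploid EpiSC-1 and 11150.1, 11338 and 11219 in haploid EpiSC-2. The haploid lines were alike and below both diploid lines. Its difference was -0.38 ± 0.11 (adjusted p = 0.0318), and it was not called with quantile normalization (adjusted p = 0.183), without diploid EpiSC-1 (0.0771) or without haploid EpiSC-2 (0.0545). A dimmer Top2a probe set was at -0.81 (adjusted p = 0.00901 over all probe sets).

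The genes that start mitosis and those of the spindle checkpoint gave 0 calls between the ploidies. Among the 6 entry genes, Cdk1 was at -0.16 ± 0.12 (adjusted p = 0.428), Ccnb2 at -0.26 ± 0.13 (adjusted p = 0.208) and Ccna2 at -0.26 ± 0.13 (adjusted p = 0.181), the last with haploid arrays (4172 to 4460.1) all below the diploid arrays (4746 to 5688). Wee1 was at -0.03 ± 0.17, and the phosphatase genes Cdc25b and Cdc25c were at 0.17 ± 0.36 and -0.11 ± 0.19. The kinase genes Plk1 (-0.26 ± 0.18), Aurka (-0.20 ± 0.17) and Nek2 (-0.15 ± 0.15) were lower in mean and not called. Of the 5 checkpoint genes, Bub1, Bub1b and Bub3 were at -0.06, -0.02 and -0.17 and Mad2l1 at 0.13. Ttk, the kinase that starts the checkpoint signal, was at 0.41 ± 0.15 with every haploid array higher (1951 to 2269 against 1374 to 1828), and its adjusted p = 0.0674. Of the 43 genes, 11 had haploid arrays all below the diploid arrays and 2 all above, against 14.8% and 17.1% of all genes.

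Of the 7 cytokinesis genes, 0 were called between the ploidies. Cep55, which brings the abscission machinery to the midbody, was at 0.60 ± 0.25 (adjusted p = 0.11). Anln was at 0.42 ± 0.18 (adjusted p = 0.116), Ect2, the activator of RhoA at the cleavage furrow, at -0.52 ± 0.27 (adjusted p = 0.216), and Racgap1 at 0.23 ± 0.19. Kif23 and Prc1 of the central spindle and the kinesin gene Kif20a were at -0.09, -0.03 and -0.04. Without haploid EpiSC-2, Cep55 (1.20, adjusted p = 6.26e-05), Anln (0.55, adjusted p = 0.0365) and Racgap1 (0.48, adjusted p = 0.0223) were called higher. That omission leaves 1 haploid line, so these calls describe haploid EpiSC-1 and not haploid lines in general. A second Racgap1 probe set went the other way, with haploid EpiSC-1 (1398 to 1572) below every diploid array (1679 to 1882).

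**Figure D3:**
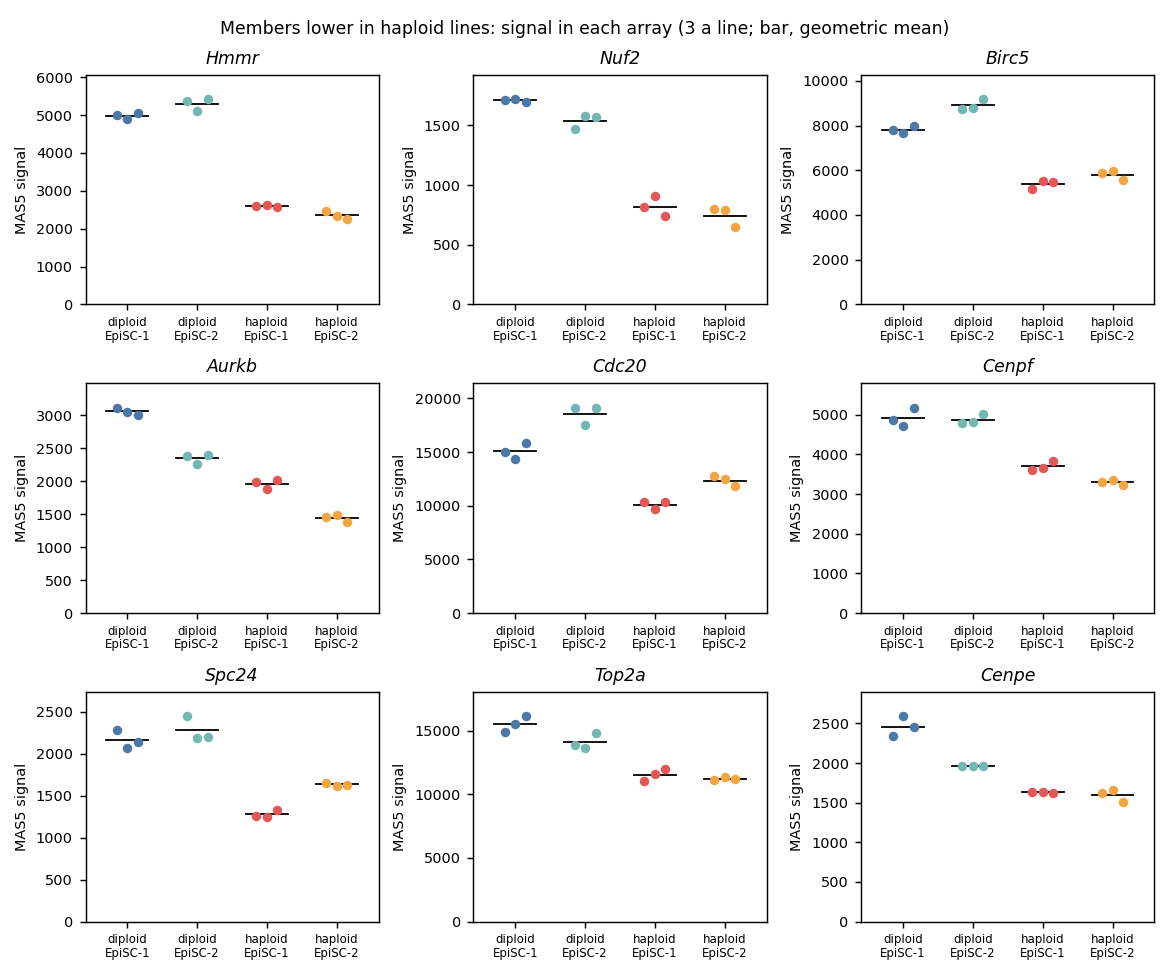
MAS5 signal in each of the 12 arrays for the 9 genes called lower in haploid cells, in order of p; points are arrays, bars the geometric mean of the 3 replicates of a line, and each axis starts at 0. In every panel all 6 haploid arrays lie below all 6 diploid arrays; for Hmmr the highest haploid array is at 2632 and the lowest diploid array at 4884.

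Other probe sets of the same genes did not always follow. Besides the probe set that stood for each gene, 47 passed the signal filter, from 28 genes. Between the ploidies 31 of the 47 had the same sign as the gene's main probe set, 7 were called lower and 0 higher, and 0 were called against that sign. Between the haploid lines 38 had the same sign, 5 were called higher and 13 lower, and 1 was called against it. Between the diploid lines 23 had the same sign, 2 were called higher and 22 lower, and 13 were called against it. The examples that follow were named after their values were seen. A dim Cenpa probe set read 640.2 to 814 in the diploid arrays and 9.06 to 39.6 in the haploid arrays, which all lay below the signal minimum of 62.6, so no size is given, while the bright one read 6398 to 7481 and 6012 to 7264. A dim Bub1 probe set read 331 to 476 against 91.8 to 131 (-1.80, adjusted p = 0.00158 over all probe sets), while the bright one differed by -0.06. A second Pttg1 probe set was also called lower (-0.44, adjusted p = 0.0206). Where in a transcript these probe sets lie, and whether strain sequence differences fall under their probes, was not tested.

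Chromosome 11 held 4 of the 9 lower members. Of the 5 members on chromosome 11, those called lower were Hmmr, Aurkb, Birc5 and Top2a, against 5 of the 38 members elsewhere. Over all 917 tested genes of chromosome 11, 19.8% were lower and 3.38% higher, with a median of -0.30, so these members lie on a chromosome with more lower calls than all genes together (7.54%). Kif4, the member on the X chromosome, had a positive difference on a chromosome whose median was 0.29. Chromosome copy number was not measured.

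Cell type markers differed between the ploidies as well, and which cells gave their signals was not tested. Of 26 tested fibroblast feeder markers, from a list of 30, 20 were higher in haploid cells and 0 lower. Their summed signal was 10253 to 10798 in diploid EpiSC-1, 30799 to 32128 in diploid EpiSC-2, 72599 to 73219 in haploid EpiSC-1 and 66546 to 68546 in haploid EpiSC-2. No marker was listed at 0, and Lum, Twist2 and Fap lay under the signal filter. The sum for 12 epiblast markers was 71521 to 75571, 56183 to 58066, 32151 to 32477 and 46648 to 48507.0 in the same order. Of the 12, 1 was called higher in haploid cells and 4 lower, with differences from -2.82 to 1.85. Between the diploid lines the feeder sum was higher in diploid EpiSC-2, with 14 of the 26 feeder markers called higher there and 5 lower. The 9 genes called lower in haploid cells went both ways between these lines. Aurkb (-0.38, adjusted p = 7.39e-06), Cenpe (-0.33, adjusted p = 6.80e-05) and Top2a (-0.14, adjusted p = 0.0125) were lower in diploid EpiSC-2, and Cdc20 (0.30, adjusted p = 0.000111) and Birc5 (0.19, adjusted p = 0.00128) were higher. Those not called were Hmmr at 0.09 ± 0.04 (adjusted p = 0.0839), Nuf2 at -0.15 ± 0.08 (adjusted p = 0.129), Spc24 at 0.08 ± 0.06 (adjusted p = 0.258) and Cenpf at -0.02 ± 0.04 (adjusted p = 0.796). These values are from the brightest probe sets. When probe sets were averaged, Hmmr (-0.53, adjusted p = 3.06e-06) and Cenpf (-0.84, adjusted p = 3.44e-06) were called lower in diploid EpiSC-2. The 3′ to 5′ ratio of the actin control ran from 1.34 to 1.42 on the haploid arrays and from 1.46 to 1.68 on the diploid ones. That of the Gapdh control overlapped, at 0.836 to 0.87 on the haploid and 0.821 to 0.938 on the diploid arrays. The part of these differences in the mitotic genes was not tested.

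Genes that work beside the members, from 7 lists of 195 tested genes, were called higher in 4 cases (2.05%) and lower in 21 (10.8%). The total of 12.8% lay below the 17.2% of all genes, with 9.69% of all genes higher and 7.54% lower. Of 31 other kinetochore and checkpoint genes, 1 was higher and 3 lower. Cenpk fell by 1.43 on the log2 scale (SE 0.21, adjusted p = 0.000244) and Cenpw by 1.09 (adjusted p = 0.00309), both of the constitutive centromere network, and Cenpi of the same network rose by 0.93 (adjusted p = 0.00106). Of 28 other spindle and cytokinesis genes, 0 were higher and 5 lower, led by Psrc1, a microtubule-binding protein gene (-2.30 ± 0.14, adjusted p = 5.62e-08), with mean signals of 7009 and 5635 in diploid lines against 1440.0 and 1130.3 in haploid lines. Ckap2 (-0.82) and Gtse1 (-1.09) followed. Of 23 cohesin and condensin genes, 0 were higher and 4 lower, among them Esco1 (-1.37) and Esco2 (-0.78), whose products acetylate cohesin, and Cdca5, or sororin (-0.58). Of 29 centrosome genes 2 were lower, the augmin subunit genes Haus4 (-0.96) and Haus1 (-0.68), and of 17 anaphase-promoting complex genes 0 were called.

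Of 47 genes of G1/S and DNA replication, 3 were higher and 4 lower, with a median of -0.11. Rfc5, a clamp loader subunit gene, changed by -0.72 (adjusted p = 0.00275), while the cyclin genes Ccne2 (0.89, adjusted p = 0.00833) and Ccnd2 (0.58, adjusted p = 0.0165) rose. Among 20 tested genes from a list for control of mitotic transcription, 0 were higher and 3 lower. That list of 21 also names the proliferation marker Mki67. Cdkn1a, the p21 inhibitor of cyclin-dependent kinases, changed by -2.89 ± 0.32 (adjusted p = 1.59e-05), with mean signals of 1347 and 3826 in diploid lines against 361 and 260.0 in haploid lines. Rb1 was at -0.85 (adjusted p = 0.0176) and Nfyb, a subunit of NF-Y, at -0.56 (adjusted p = 0.0288). Foxm1 and Mybl2, which activate mitotic genes, were at 0.46 ± 0.41 (adjusted p = 0.503) and 0.15 ± 0.22 (adjusted p = 0.711).

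The second comparison set haploid EpiSC-2 against haploid EpiSC-1, in a limma fit of the 4 group means. Of the 43 genes, 10 were higher in haploid EpiSC-2 and 20 lower, a total of 69.8% against 56.6% of all genes (25.7% higher and 31.0% lower). At an unadjusted p under 0.05, 61.1% of all genes passed, and 1 member, Cep55, was called and differed at least 2-fold against 6.84% of all genes. The arrays of the lines did not overlap for 8 higher and 22 lower members, against 28.3% and 35.3% of all genes. The median of the members was -0.15 against -0.05 for all genes. With arrays centred on their medians, which raised the median of all genes to 0.11, 14 members were higher and 7 lower with a median of 0.01, and with quantile normalization 5 were higher and 22 lower with a median of -0.15 against -0.01. The members' median thus lay below that of all genes under each scaling, but the split of calls did not hold. Haploid EpiSC-2 had the lowest level of the 4 lines in 22 of the 43 genes, and was the lowest in 22% of all genes. Such calls measure the spread between replicates of a line, and not that between haploid lines in general.

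**Figure D4:**
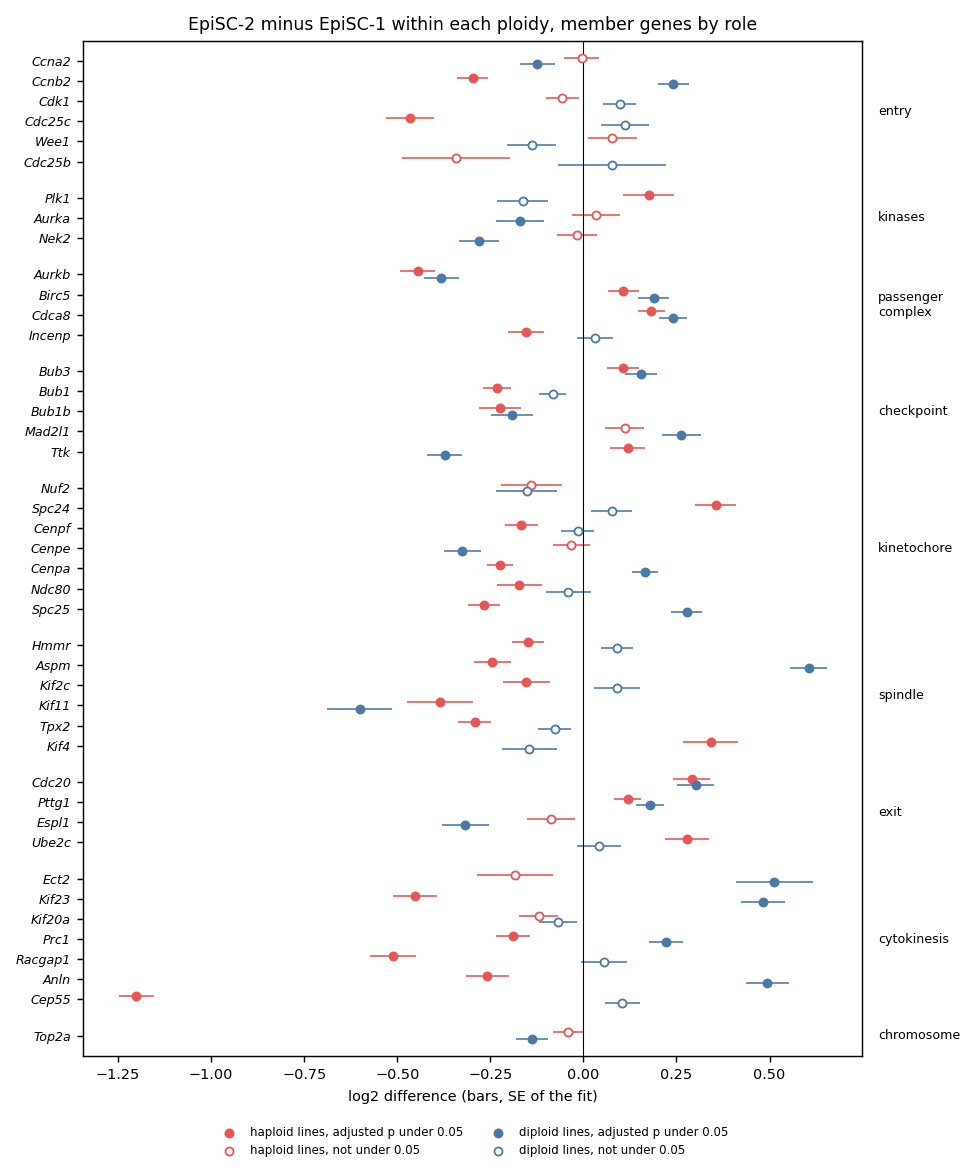
Log2 difference between the lines of each ploidy (EpiSC-2 minus EpiSC-1) for the 43 genes by role, haploid lines in red and diploid lines in blue, with bars of 1 SE of the fit; filled points passed an adjusted p of 0.05. Cep55 stands apart at -1.20 between the haploid lines, and 5 of the 7 cytokinesis genes are called below 0 there, while 4 of them are called above 0 between the diploid lines.

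Of the 7 cytokinesis genes, 5 were called lower in haploid EpiSC-2 and 0 higher, with 3 lower under median centring, 6 under quantile normalization and 0 higher in either. Kif20a (-0.12, adjusted p = 0.0584) and Ect2 (-0.18, adjusted p = 0.141) were not called, and Kif20a was at 0.04 under median centring. Anln (-0.26) and Prc1 (-0.19) were called but not under median centring (adjusted p = 0.21 and 0.672). Cep55 was at 5845, 6108 and 5889 in haploid EpiSC-1 and at 2662, 2579 and 2521 in haploid EpiSC-2. It was at 2388, 2632 and 2481 in diploid EpiSC-1 and 2604, 2816 and 2640.1 in diploid EpiSC-2, so haploid EpiSC-1 alone stood above the other 3 lines. The difference between the haploid lines was -1.20 ± 0.05 (adjusted p = 6.86e-11), and its dim second probe set gave -1.36 (adjusted p = 0.000198 over all probe sets). Racgap1, which with Kif23 forms centralspindlin, was at 2198, 2309 and 2241 in haploid EpiSC-1 and 1444, 1567 and 1733 in haploid EpiSC-2, against 1505 to 1691 in the diploid arrays. Its difference was -0.51 ± 0.06 (adjusted p = 6.77e-06), but its second probe set went the other way (0.23, adjusted p = 0.00509) and an average of its probe sets was not called (adjusted p = 0.682). Kif23 was lower by a similar amount (-0.45 ± 0.06, adjusted p = 1.50e-05), but averaging its probe sets gave 0.02 (adjusted p = 0.873). Its other probe set above the signal filter was at -0.16 (adjusted p = 0.41 over all probe sets). Both averages take in a probe set under that filter. In the haploid arrays it read 1.66 to 13.8 for Racgap1 and 14.2 to 35.9 for Kif23.

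**Figure D5:**
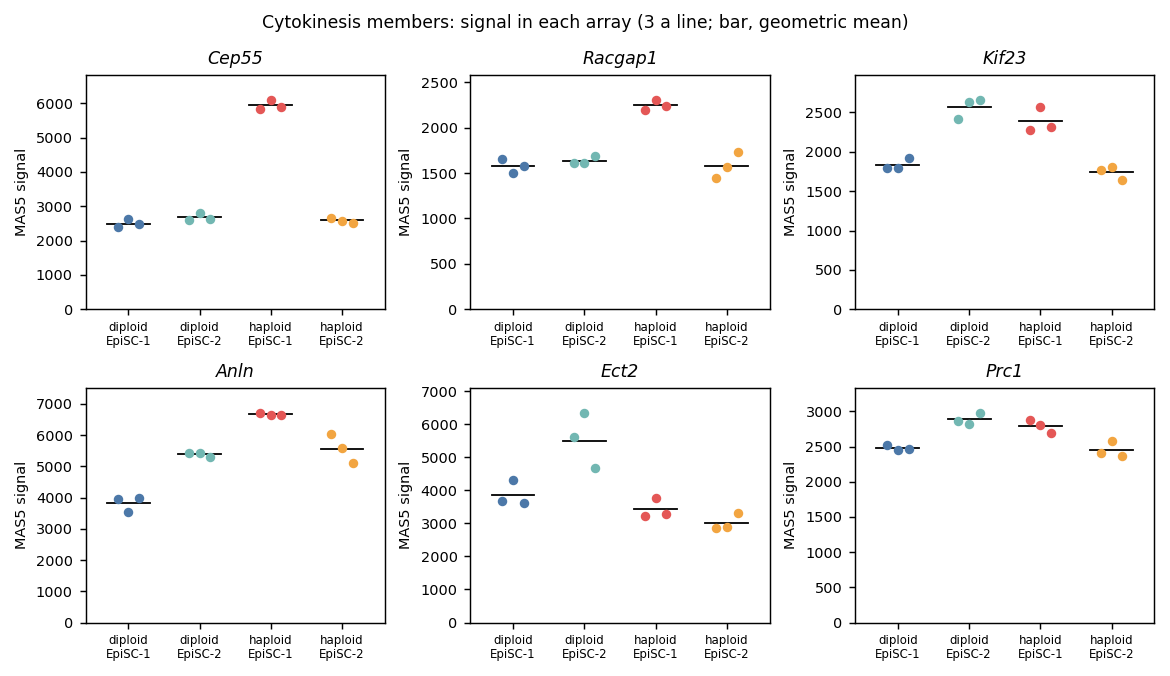
MAS5 signal in each of the 12 arrays for 6 cytokinesis genes; points are arrays, bars the geometric mean of the 3 replicates of a line, and each axis starts at 0. For Cep55 the 3 arrays of haploid EpiSC-1 lie between 5845 and 6108, and all other arrays between 2388 and 2816.

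Genes of the other roles differed between the haploid lines as well. Aurkb was lower in haploid EpiSC-2 (-0.44 ± 0.05, adjusted p = 1.66e-06), and its call held in 21 of 21 alternatives. Cdca8 was higher (0.18 ± 0.04, adjusted p = 0.000714). Cdc25c, a phosphatase that activates Cdk1, was at 1145, 1127 and 1177 in haploid EpiSC-1 and 772, 821 and 908 in haploid EpiSC-2, against 993 to 1157 in the diploid arrays, a difference of -0.47 ± 0.06 (adjusted p = 2.50e-05). Ccnb2 was at 5646, 5493 and 5673 in haploid EpiSC-1 and 4618, 4538 and 4525 in haploid EpiSC-2, against 5299 to 6871 in the diploid arrays. Its difference was -0.30 ± 0.04 (adjusted p = 2.91e-05). Both genes had their lowest arrays in haploid EpiSC-2. Cdk1 (-0.06 ± 0.04, adjusted p = 0.293) and Ccna2 (0.00 ± 0.05, adjusted p = 0.939) were not called, and Ccna2 was called higher under median centring (0.15, adjusted p = 0.0368).

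Of the 6 spindle genes, 5 were lower in haploid EpiSC-2 and 1 was higher, a split that under median centring was 1 and 1. Kif11 was at 2377, 2550 and 2385 in haploid EpiSC-1 and 1994, 2023 and 1607 in haploid EpiSC-2, and at 2544, 2415 and 2737 in diploid EpiSC-1 and 1561, 1898 and 1626 in diploid EpiSC-2. It was lower in EpiSC-2 of both ploidies, with differences of -0.39 ± 0.09 (adjusted p = 0.00177, and 0.0538 under median centring) in the haploid and -0.60 ± 0.09 (adjusted p = 4.19e-05) in the diploid lines. Kif4 was at 886, 900.0 and 913 in haploid EpiSC-1 and 1106, 1067 and 1257 in haploid EpiSC-2, against 701 to 866 in the diploid arrays. It was the spindle gene that was higher (0.34 ± 0.07, adjusted p = 0.00119), and the X chromosome as a whole had a median of 0.25 between these lines. The members on chromosome 19, Cep55, Kif11 and Incenp, were all called lower on a chromosome where 50.3% of 386 genes were.

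Of the genes of mitotic exit, 3 of 4 were higher in haploid EpiSC-2 and 0 lower, with 3 under median centring and 2 under quantile normalization. Ube2c was at 8022, 7674 and 8900 in haploid EpiSC-1 and 9805, 10232 and 9725 in haploid EpiSC-2, against 7324 to 8407 in the diploid arrays. It was highest in haploid EpiSC-2 (0.28 ± 0.06, adjusted p = 0.00102). Cdc20 was higher by 0.29 ± 0.05 (adjusted p = 0.000153), although it remained below the diploid lines. Spc24 rose in the same way (0.36 ± 0.06, adjusted p = 6.88e-05), while Spc25, at 4304, 4213 and 4181 in haploid EpiSC-1 and 3476, 3398 and 3683 in haploid EpiSC-2, was lower (-0.27 ± 0.04, adjusted p = 8.04e-05, and 0.0579 under median centring). The diploid arrays of Spc25 ran from 3103 to 3919.

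In the checkpoint group Bub1 was at 7616, 7515 and 7379 in haploid EpiSC-1 and 6517, 6281 and 6375 in haploid EpiSC-2 (-0.23 ± 0.04, adjusted p = 9.20e-05), and at 6829 to 7649 in the diploid arrays. Bub1b was at 2967, 3177 and 2668 against 2430.0, 2477 and 2616 (-0.23 ± 0.06, adjusted p = 0.00341), and at 2522 to 2991 in the diploid arrays. Neither passed under median centring (adjusted p = 0.239 and 0.406). Plk1 was at 2435, 2157 and 2674 against 2854, 2648 and 2675 with overlapping arrays (0.17 ± 0.07, adjusted p = 0.0430), and at 2691 to 3294 in the diploid arrays. Its call was lost on leaving out any of 8 arrays, as was that of Ttk. Those of Bub3, Kif2c, Birc5, Ndc80, Incenp and Pttg1 were lost on leaving out any of 6, 5, 3, 2, 2 and 1 (adjusted p up to 0.152, 0.185, 0.173, 0.101, 0.0758 and 0.0671).

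On the deposited scale, more replication genes were higher than lower in haploid EpiSC-2, while more members were lower than higher. Of 47 genes of G1/S and DNA replication, 28 (59.6%) were higher in haploid EpiSC-2 and 5 (10.6%) lower, with a median of 0.20, and under median centring and quantile normalization 36 and 25 were higher and 1 and 2 lower. The members had 14 higher and 7 lower under median centring, the same direction, and 5 and 22 under quantile normalization. The difference between the lists was not tested. Of 31 other kinetochore and checkpoint genes, 11 were higher and 4 lower, with a median of 0.14 against -0.15 for the members. Of 28 other spindle and cytokinesis genes, 2 were higher and 11 lower, with a median of -0.14.

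The third comparison set diploid EpiSC-2 against diploid EpiSC-1. Of the 43 genes, 14 were higher and 10 lower, which at 55.8% equalled the share of all genes (55.8%, 26.4% higher and 29.4% lower), with a median of 0.06 against -0.01. With the mean of all probe sets of a gene, 7 were higher and 12 lower, of which 14 were shared with the calls from the brightest probe sets. This mean takes in probe sets under the signal filter, here and below. At an unadjusted p under 0.05, 60.2% of all genes passed. No overlap was seen for 17 higher and 14 lower members, against 29.0% and 32.5% of all genes, and 0 members were called at 2-fold or more, against 6.78%. Aspm was higher by 0.61 ± 0.05 (adjusted p = 1.08e-07), at 2480, 2604 and 2566 in diploid EpiSC-1 and 4023, 3613 and 4014 in diploid EpiSC-2. Averaged over probe sets it was at -0.35 (adjusted p = 0.0608), and 2 dim probe sets were called lower (-0.58 and -1.14). Of the cytokinesis genes 4 were higher and 0 lower, with 4 and 5 higher under the other scalings. They were Ect2 (0.51), Anln (0.49), Kif23 (0.48) and Prc1 (0.22), and the mean of all probe sets of Kif23 and Prc1 was at -0.16 and -0.10. Ttk (-0.37 ± 0.05, adjusted p = 1.05e-05), Aurkb (-0.38), Cenpe (-0.33), Espl1 (-0.32) and Nek2 (-0.28) were lower beside Kif11, but averaged over probe sets Ttk and Nek2 were not called (adjusted p = 0.687 and 0.071). Aurka, Bub1b, Ccna2 and Top2a were lower by smaller amounts, and the calls of Aurka, Ccna2 and Top2a were lost on leaving out any of 4, 3 and 1 of the arrays (adjusted p up to 0.128, 0.171 and 0.0606). Of the 9 genes lower in haploid cells, 5 also differed between the diploid lines on their brightest probe sets. Aurkb, Cenpe and Top2a were lower in diploid EpiSC-2, and Cdc20 and Birc5 were higher. Averages of probe sets put Hmmr (-0.53) and Cenpf (-0.84) lower there as well. The call of Birc5 was lost with quantile normalization (adjusted p = 0.997), that of Cdc20 without _x_at probe sets (adjusted p = 0.461) and that of Top2a when its probe sets were averaged (adjusted p = 0.347). The Top2a average takes in a probe set at 0.928 to 4.1, under the signal filter. The dimmer Top2a probe set that passed the filter was lower (-0.38, adjusted p = 0.000793 over all probe sets). Of the 47 replication genes, 2 were higher and 29 lower, with a median of -0.29.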

How the data were processed

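The 12 arrays carry labelled RNA from 4 lines, read on the Affymetrix mouse 430 2.0 array. The deposited values are linear signal intensities that the authors made with MAS5, per the submitters' processing notes, whose version is not given in the sources used here. Each array's values follow a target of 500. Probe sets were named from the platform annotation, of 45101 of which 34945 had 1 symbol, 932 several and 9160 none.

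Signals were taken to log2 with no pseudocount, and the brightest probe set stood for a gene if its mean reached 5.97 (a signal of 62.6, the median over probe sets). Ploidies were compared with limma 3.58.1 (R 4.3.3), with line as a random block (correlation 0.806) and an intensity trend. Lines were compared in a limma fit of the 4 group means. Benjamini-Hochberg adjustment ran over 11105 genes, and calls are under 0.05. Other probe sets come from a fit of 19837. The number of arrays limits the precision, and with 2 lines a ploidy the p-values between ploidies are uncertain. The code was tested on simulated data in which 200 of 11105 genes were changed. The fit between lines recovered most changed genes with few false calls. Most calls of the ploidy fit were unchanged genes at that setting, and the fit of line means recovered none. Replicate numbers did not pair samples (correlations -0.0466 to 0.0765).

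The members and gene lists were chosen with earlier results of these data known. By the rule for named genes, every member is described by role. Values in each array are given for members called between the ploidies and for up to 2 members a role with the largest called difference between the haploid lines. Up to 3 called genes of each pathway list with the lowest p are named, with Cdkn1a, Foxm1 and Mybl2.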

Additional observations from a re-analysis of the deposited data

How the results depend on the processing

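Between the ploidies, the count of members called stayed within 1.5 times 9 in each alternative but 1: with line means as units it was 1. The genes called changed more than the count. Only 6 of the 9 were kept without diploid EpiSC-1, haploid EpiSC-1 or haploid EpiSC-2, and 6 with averaged probe sets. With no filter on dim probe sets 12 were called, 2 higher and 10 lower, against 1827 and 1463 of all 18193 genes. Leaving out single arrays gave 8 to 9 calls between the ploidies, 24 to 31 between the haploid lines (30 with all arrays) and 21 to 27 between the diploid lines (24). With the mean of all probe sets of a gene, those under the signal filter included, 17 members were called between the haploid lines, 6 higher and 11 lower. In the 250 bases before the start alone, 35.9% of member windows and 16% of all windows held a CHR core. With the replicate block, which the data did not bear out as a pairing, 8, 29 and 25 members were called in the 3 comparisons.

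Some directions reversed, and the cause was not tested. Between the haploid lines, median centring gave Ccna2 0.15, Hmmr 0.0095, Incenp 0.0034 and Kif2c 0.0053, and the mean of probe sets gave Kif23 0.0248. Between the diploid lines, quantile normalization gave Bub3 -0.0345 and Pttg1 -0.0147. The mean of probe sets gave Aspm -0.35, Bub1b 0.0648, Bub3 -0.27, Cenpa -0.46, Hmmr -0.53, Kif23 -0.16, Kif2c -0.39, Prc1 -0.10 and Spc25 -0.0631. Without probe sets of suffix _x_at, an alternative chosen after seeing the data, Incenp was at -0.42 and Kif2c at -0.48. Between the ploidies 0 directions reversed among called values.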
